A study of Mus musculus with 18 samples.

Results

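This account concerns the genes for enzymes that write and erase chemical marks on histones and on DNA, followed in cultured mouse macrophages. Members were the rows of the count table whose symbol matched a set of name patterns: histone lysine demethylases (Kdm), classical deacetylases (Hdac), sirtuins (Sirt), lysine acetyltransferases (Kat), lysine methyltransferases (Kmt and Setd), TET dioxygenases and DNA methyltransferases (Dnmt). Ezh1, Ezh2, Ehmt1, Ehmt2, Ep300 and Crebbp were added by name. The patterns took 75 of 43280 symbols, and 70 of these reached 1 CPM (counts scaled to library size) in at least 3 libraries and were tested, among 14158 genes tested in all. The 5 rows below that level were Tet1 with 85 counts over all 18 libraries, Kdm4d with 27, the pseudogene Dnmt3l-ps1 with 6, the antisense RNA Kdm6bos with 3 and the antisense RNA Dnmt3bos with 0. A pattern on names also takes rows that are no enzyme. Of the 70 tested rows, Dnmt3aos is an antisense RNA and Kat2b-ps a pseudogene.

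Acetyltransferases add acetyl groups to histone lysines, which loosens chromatin and is found at active genes, and deacetylases and sirtuins take them off. Methylation carries different meanings by position: on lysine 4 of histone H3 it goes with active promoters and enhancers, and on lysines 9 and 27 with silencing. In macrophages, LPS is known to remodel enhancers within hours, and Kdm6b, which removes the repressive mark from lysine 27, is known as an LPS-induced gene. DNA methyltransferases place methyl groups on CpG cytosines, and TET enzymes oxidise them on the way to removal.

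The cells were macrophages differentiated from the bone marrow of wild-type C57BL/6J mice. The marrow donors had received PBS as vehicle, LPS (a cell wall component of Gram-negative bacteria) once (1xLPS) or LPS 4 times (4xLPS). Each culture was then left without a further stimulus (NO) or exposed to LPS in vitro (LPS), giving PBS_NO, 1xLPS_NO, 4xLPS_NO, PBS_LPS, 1xLPS_LPS and 4xLPS_LPS with 3 libraries each. The sources used here leave unsaid if the 3 libraries per group are 3 mice, and p-values therefore describe spread among libraries that may be technical. They also give no dose or time.

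Library totals ranged from 9296453 to 54050622 counts, and macrophage markers were abundant throughout, with group means of their summed level (10 markers) between 17938 and 21683 CPM. Arms were assigned by title. In 12 of the 18 libraries a treatment tag in the labels has PBS and 4xLPS exchanged, while each column of the table carries a sample number whose tag named the column's own arm in 18 of 18 cases. If the tags of the same-titled samples were the true ones, every 4xLPS against PBS direction below would turn round and the PBS and 4xLPS responses would swap names. 1xLPS_NO library 1 and 1xLPS_LPS library 3 stood apart on the second principal component (scores 52.9 and 42.2, against -23.8 to 16.3 in the other 16 libraries), and members deviated from their group means by a median of 0.39 and 0.30 log2 units there, more than in any other library. Counts of calls and some single values are given with and without these libraries, and other values of the 1xLPS groups only with them. B cell and erythroid markers summed to at most 1.14 CPM in any library. T and NK cell markers reached 9.76 CPM, dendritic cell markers 5.40 and mast cell markers 5.34. Neutrophil markers (8, with S100a9 highest) summed to 34.9 to 128 CPM per library. Megakaryocyte markers (4, with Pf4 highest) summed to 55.98 to 147 CPM. The summed level of stromal markers (10 markers, led by Col1a1 and Col1a2, 0 of them at 0 in any group and Lepr and Lum under 1 CPM) had a mean of 1534 CPM in PBS_NO, 2419 in 1xLPS_NO and 2932 in 4xLPS_NO, and of 2476 in PBS_LPS, 3636 in 1xLPS_LPS and 4077 in 4xLPS_LPS. In these bulk libraries, fewer cells of a type and less RNA per cell cannot be told apart.

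Levels between genes were compared per kilobase of exon. Averaged over the 18 libraries, the most abundant member was Sirt2, a tubulin and histone deacetylase, with 55.8 CPM per kilobase. It was followed by Ehmt2 (G9a, which methylates lysine 9 of H3) with 43.8, the lysine 9 and 36 demethylase Kdm4a with 26.5 and the H4 lysine 20 methyltransferase Setd8 with 24.4. Setd8 is called Kmt5a in current annotation. Summed over the 70 rows, members held 3535 to 4122 CPM by group mean. Levels spread least within 4xLPS_LPS, with a median coefficient of variation of 8.44%, and most in 1xLPS_NO and 1xLPS_LPS, with 26.2% and 21.5%, the groups that hold the libraries named above.

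The first question was how the enzymes responded to LPS in macrophages of vehicle-treated mice. Of the 70 members, 7 rose and 7 fell at an adjusted p under 0.05 in edgeR's quasi-likelihood test, which is 20% of members beside 25.3% of all genes tested. By direction, 10% of members rose beside 14% of all genes, and the same share fell beside 11.3%. The members called were thus not more numerous than the background. The median log2 fold change was 0.08 over members and -0.02 over all genes tested. Without TMM scaling, which moves the median of all genes to -0.23, 6 members rose and 12 fell, beside 8.75% and 19.2% of all genes.

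Among the erasers of histone methylation, Kdm6b (chromosome 11, 69398508 to 69413675 in mm10, minus strand) changed most. It stood at 12.3, 14.5 and 13.7 CPM in the 3 PBS_NO libraries and at 79.8, 87.9 and 51.8 CPM in PBS_LPS. The lowest stimulated library was thus well above the highest unstimulated one, and the log2 fold change was 2.44 ± 0.28 (adjusted p = 3.2e-06, edgeR). Its paralogue Kdm6a, an X-linked demethylase of the same residue, had -0.02 ± 0.30 (95% interval from -0.65 to 0.62, not called).

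Kdm4a (chromosome 4, 118136957 to 118180043 in mm10, minus strand), which demethylates lysines 9 and 36 of H3, had 109, 93.6 and 99.6 CPM in PBS_NO and 239, 262 and 196 CPM in PBS_LPS. The groups did not overlap, and it rose by 1.21 ± 0.14 on the log2 scale (adjusted p = 3.9e-06, edgeR). The X-linked lysine 4 demethylase Kdm5c rose by 0.84 ± 0.13, from 103 ± 6.74 to 184 ± 13.5 CPM (mean ± SD, n = 3). Its relatives that erase the same mark did not pass the test, with 0.06 ± 0.22 for Kdm5a and 0.11 ± 0.22 for Kdm5b. The lysine 36 demethylases Kdm2a and Kdm2b went opposite ways. Kdm2a rose by 0.50 ± 0.15 (adjusted p = 0.019, edgeR), a call that was lost without TMM scaling (0.29), without the filter on low counts (0.52) and without PBS_NO library 2 or 3 or PBS_LPS library 1 (0.50, 0.47 and 0.48), while Kdm2b, a CpG-binding subunit of a Polycomb complex, changed by -0.69 ± 0.15 and fell. Kdm2b read 39.000, 37.1 and 33.2 CPM in PBS_NO and 20.4, 25.5 and 21.8 CPM in PBS_LPS. Part of its sequence is shared with the near-identical copy Gm12397, and its exons overlap Rnf34, so its counts may be mixed with theirs.

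Among methyltransferases, Setd8 (chromosome 5, 124439930 to 124462308 in mm10, plus strand), the enzyme for single methylation of H4 lysine 20, rose. It read 63.997, 65.9 and 68.8 CPM in PBS_NO and 225, 212 and 217 CPM in PBS_LPS. The gap between the groups exceeded the range within either, and the log2 fold change was 1.72 ± 0.16 (adjusted p = 1.9e-07, edgeR), the lowest p of all members. Setd7, a lysine methyltransferase that also acts on non-histone proteins, changed by -0.81 ± 0.19 and fell. None of the 7 Kmt2 and Setd1 members, grouped here for methylation of H3 lysine 4 although not each need have that activity, was called. The nearest was Kmt2a (MLL1) with 0.81 ± 0.29 and an adjusted p of 0.051, and Kmt2d, with the highest CPM of the 7 before correction for length, had 0.64 ± 0.32. The Polycomb methyltransferases of lysine 27 were close to 0, with 0.03 ± 0.23 for Ezh2 (interval from -0.46 to 0.52) and 0.02 ± 0.13 for Ezh1 (interval from -0.25 to 0.29), and without TMM scaling Ezh2 had -0.18, beside the median of -0.23 over all genes. The lysine 9 enzyme Ehmt2 had -0.29 ± 0.15 (not called).

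Among the acetylation enzymes, Kat5 (TIP60) rose by 0.59 ± 0.14, from 49.2 ± 5.05 to 74.1 ± 4.12 CPM. It was the 1 call among the 10 rows of the acetyltransferase class, which include the pseudogene Kat2b-ps. The coactivator Ep300 had 0.31 ± 0.16 and an adjusted p of 0.16. Of the 11 classical deacetylases 0 rose and 2 fell. Hdac5 (chromosome 11, 102194432 to 102230166 in mm10, minus strand), a signal-regulated deacetylase that shuttles between nucleus and cytoplasm, had 179, 166 and 149.7 CPM in PBS_NO and 72.5, 93.99 and 93.1 CPM in PBS_LPS. All stimulated libraries were below all unstimulated ones (log2 fold change -0.93 ± 0.20, adjusted p = 0.0019, edgeR). Hdac10, a polyamine deacetylase, changed by -0.76 ± 0.21. Hdac1, which has near-identical copies that may take its reads, had 0.39 ± 0.23 (not called). Among 7 sirtuins, the mitochondrial Sirt3 and Sirt4 fell by 0.84 ± 0.25 and 1.17 ± 0.27 on the log2 scale. The value of Sirt4 leaned on PBS_NO library 2, with 35.5 CPM against 18.9 and 18.3 in the other libraries, and was -0.79 without it. Sirt3 shares exon sequence with the neighbours Ric8a and Psmd13, and reads of overlapping genes cannot be told apart without the strand setting.

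DNA methyltransferases split. Dnmt1 (chromosome 9, 20907209 to 20959888 in mm10, minus strand), the maintenance enzyme that copies methylation after replication, read 166, 167 and 161 CPM in PBS_NO and 51.5, 75.6 and 77.5 CPM in PBS_LPS. It fell without overlap, to a level 2.41-fold lower (log2 fold change -1.27 ± 0.15, adjusted p = 3.6e-06, edgeR). Of 18 cell cycle genes, 1 rose and 4 fell in the same comparison, with a median of -0.37 and a summed level of 693 ± 65.8 CPM in PBS_NO and 708 ± 76.5 in PBS_LPS. Pcna weighed most in that sum, with 257 CPM in PBS_NO and 349 in PBS_LPS, while the median counts each gene alike. The part of the cell cycle genes in the fall of Dnmt1 was not tested. Dnmt3l (chromosome 10, 78041947 to 78063622 in mm10, plus strand), a cofactor of the de novo enzymes without catalytic activity and known from germ cells, had the largest fold change of all members but a low level. It read 0.789, 1.18 and 1.11 CPM in PBS_NO and 6.97, 6.54 and 6.004 CPM in PBS_LPS, where the groups were far apart (log2 fold change 2.66 ± 0.40, adjusted p = 6.3e-05, edgeR). Dnmt3l exons overlap those of Aire on the other strand. The de novo enzyme Dnmt3a had -0.29 ± 0.14 and Dnmt3b -0.46 ± 0.33, both not called. Of the TET dioxygenases, Tet2 had 1.00 ± 0.39 with an adjusted p of 0.071, and Tet3 -0.50 ± 0.29.

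**Figure D1:**
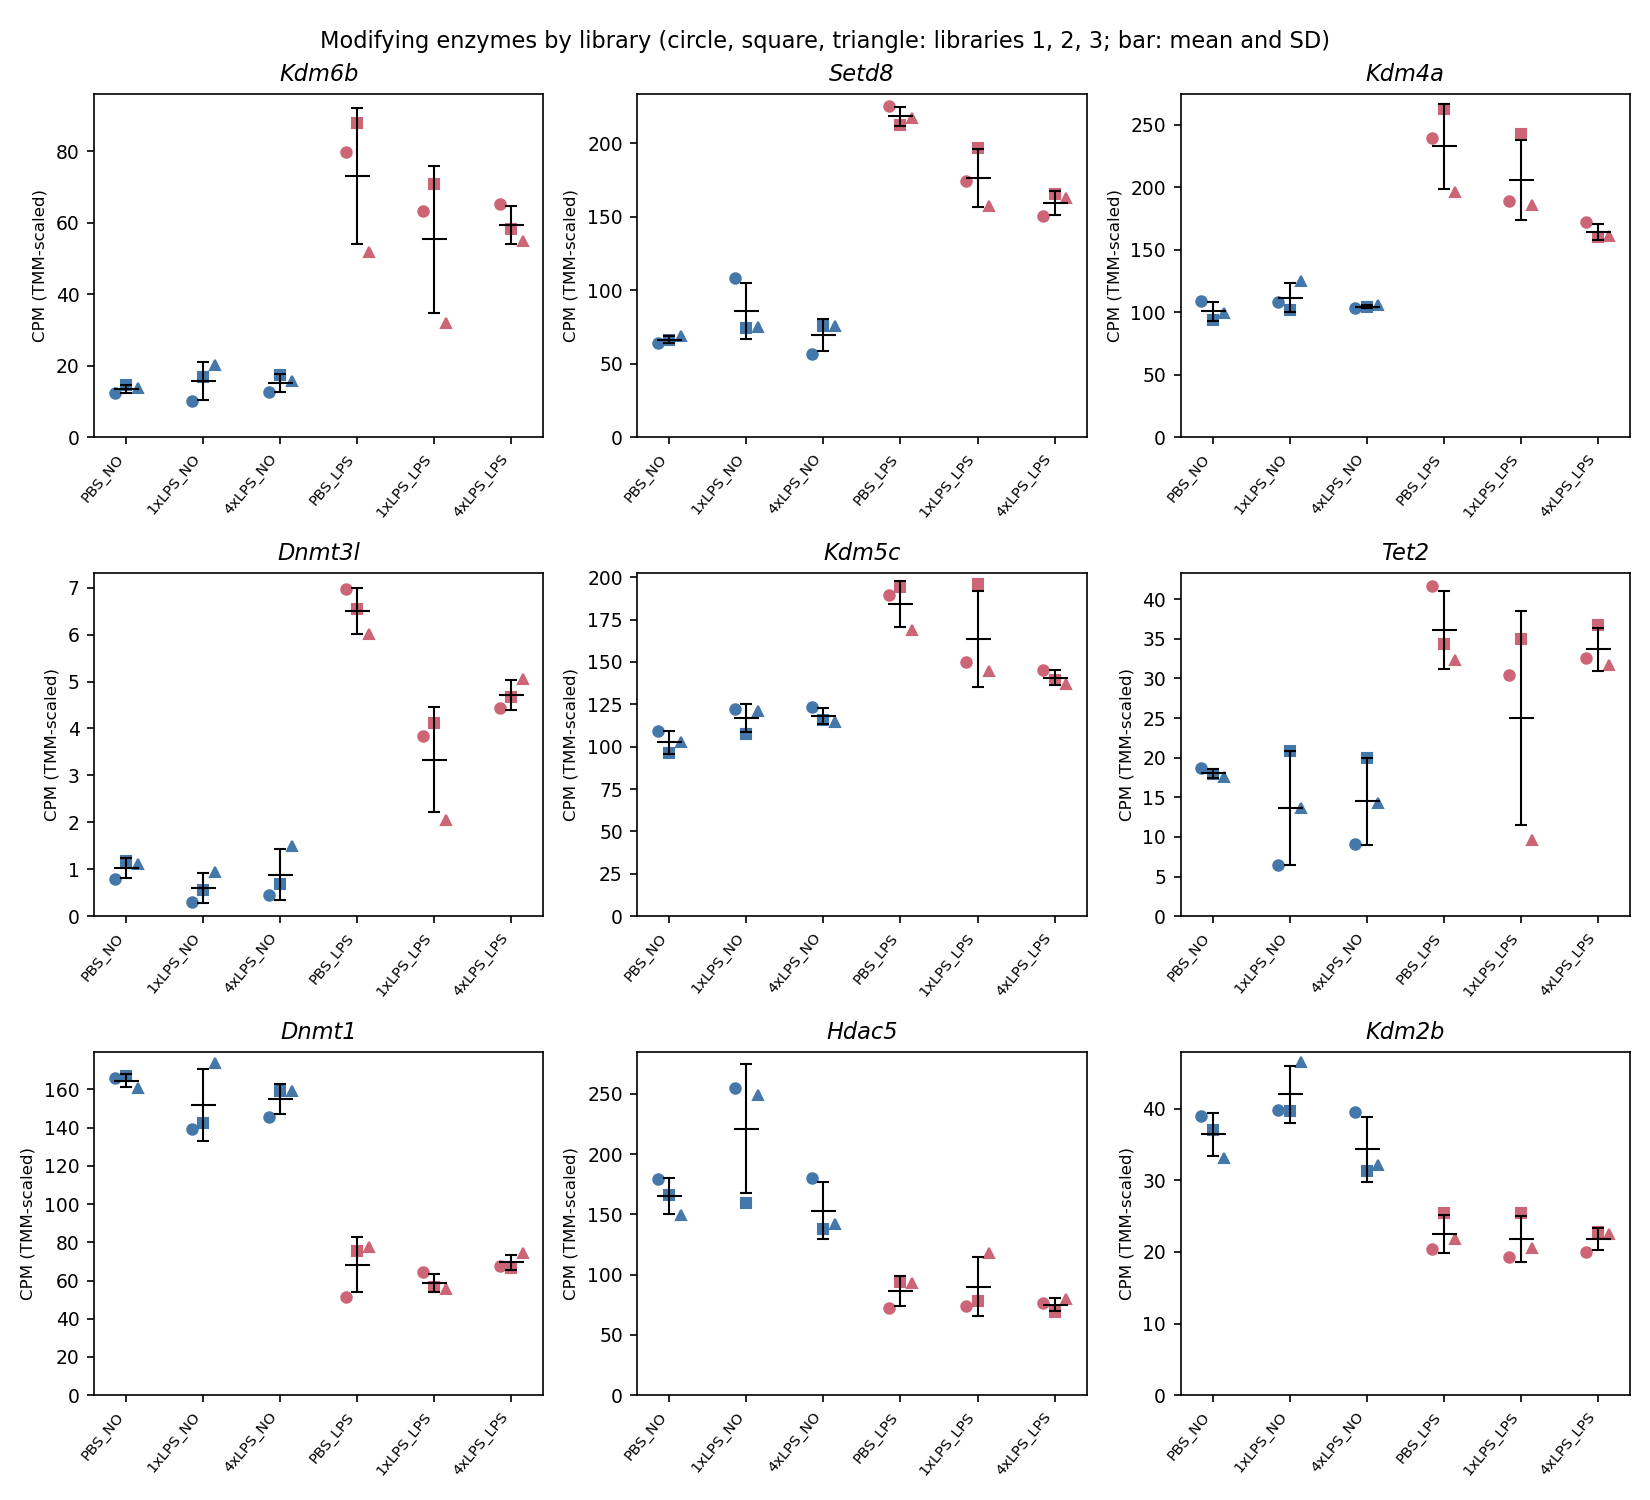
TMM-scaled CPM (vertical axes, linear, from 0) of 9 members in each of 18 libraries, by group; symbols are libraries 1, 2 and 3, and the bar with whiskers is the mean and SD of 3. Kdm6b, Setd8, Kdm4a and Dnmt3l were higher in every stimulated library than in any unstimulated one, Dnmt1 and Kdm2b lower, and Tet2 was low in 1xLPS_LPS library 3 (9.59 CPM).

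The promoters shown are those of the called members with an entry whose changes were largest in the PBS response (3 that rose and 2 that fell), because they are where a shared motif or base composition would be seen. They are RefSeq sequences of GRCm38.p6 from 250 bases before to 50 after a transcript start. Where RefSeq listed several starts, the one with most CpG was taken, which need not be the start used in these cells. Capitals mark a match to the AP-1 type motif TGANTCA, searched on both strands.
Dnmt3l (chr10:78042037-78042336, plus strand): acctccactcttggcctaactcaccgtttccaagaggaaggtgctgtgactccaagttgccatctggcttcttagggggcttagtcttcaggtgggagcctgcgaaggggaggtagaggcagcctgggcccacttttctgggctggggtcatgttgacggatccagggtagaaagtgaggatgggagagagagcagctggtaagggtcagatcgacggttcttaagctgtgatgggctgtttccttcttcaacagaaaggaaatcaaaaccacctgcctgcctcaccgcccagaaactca
Setd8 (chr5:124445249-124445548, plus strand): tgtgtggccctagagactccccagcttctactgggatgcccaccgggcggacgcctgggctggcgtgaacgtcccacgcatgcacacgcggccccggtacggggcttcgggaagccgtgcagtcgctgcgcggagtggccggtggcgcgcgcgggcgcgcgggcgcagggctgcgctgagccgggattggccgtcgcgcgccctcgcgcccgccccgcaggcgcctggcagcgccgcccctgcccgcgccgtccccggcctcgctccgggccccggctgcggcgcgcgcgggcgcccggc
Kdm4a (chr4:118179994-118180293, minus strand): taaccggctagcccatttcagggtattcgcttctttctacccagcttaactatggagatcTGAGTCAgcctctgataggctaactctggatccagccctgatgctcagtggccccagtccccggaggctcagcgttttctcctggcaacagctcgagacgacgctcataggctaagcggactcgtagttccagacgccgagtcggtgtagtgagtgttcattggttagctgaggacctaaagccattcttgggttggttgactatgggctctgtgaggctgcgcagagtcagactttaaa
Dnmt1 (chr9:20952574-20952873, minus strand): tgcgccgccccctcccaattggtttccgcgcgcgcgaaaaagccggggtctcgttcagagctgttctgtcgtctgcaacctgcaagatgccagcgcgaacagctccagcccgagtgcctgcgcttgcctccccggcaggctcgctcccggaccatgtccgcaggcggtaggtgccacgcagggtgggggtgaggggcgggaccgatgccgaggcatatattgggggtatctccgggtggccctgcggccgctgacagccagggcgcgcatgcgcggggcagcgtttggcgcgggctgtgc
Sirt4 (chr5:115484248-115484547, minus strand): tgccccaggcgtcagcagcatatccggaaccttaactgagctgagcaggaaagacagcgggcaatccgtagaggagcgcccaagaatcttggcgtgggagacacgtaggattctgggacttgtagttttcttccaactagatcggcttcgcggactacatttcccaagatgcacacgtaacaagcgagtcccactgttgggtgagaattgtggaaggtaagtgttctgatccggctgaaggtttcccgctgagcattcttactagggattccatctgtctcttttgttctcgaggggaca
Setd8 and Dnmt1 held 51 and 33 CpG in the 300 bases, Sirt4 15, Kdm4a 13 and Dnmt3l 6, beside a median of 7 over all 32851 promoters. That median and the motif shares over all promoters count every entry. Members were taken at the start with most CpG, which can raise their numbers where a gene has several entries, so the 2 are not like for like. Kdm4a had TGAGTCA 190 bases before the start. Kdm6b had no entry. Over the 57 members with an entry, the median number of CpG was 13 for the 5 that rose, 22.5 for the 6 that fell and 28 for the 46 not called. TGANTCA, held by 7.81% of all promoters, occurred in Kdm4a and Kdm5c of the 5 that rose. The kappaB consensus (8.46% of all promoters) and the pair GAAA and GAAA with any 2 bases between them (3.44%, an interferon-response type motif) occurred in 0 of the 11 called members with an entry, and TTCNNNGAA (8.30%, a STAT-type motif) in Setd7. Among the 46 not called, 7 held the kappaB consensus, 0 the GAAA pair, 4 TGANTCA and 3 TTCNNNGAA. The motifs do not contain one another. A match is a description of letters in this window.

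The next comparisons asked whether macrophages of LPS-treated mice responded in the same genes. In the 1xLPS arm 5 members rose and 9 fell (20% of members beside 22.8% of all genes tested, or 12% rising and 10.8% falling among all genes). In the 4xLPS arm 5 rose and 5 fell (14.3% beside 18.9%, with 10.6% rising and 8.29% falling among all genes). The 3 responses share no library, although they share 1 estimate of the spread. In all, 18 members were called in at least 1 arm, 8 of them in all 3, and 0 were called in opposite directions. The 8 are 57.1% of the PBS list, 57.1% of the 1xLPS list and 80% of the 4xLPS list. Dnmt3l, Kdm4a, Kdm6b and Setd8 rose in all 3 arms, and Dnmt1, Hdac5, Kdm2b and Sirt3 fell in all 3. Across the 70 members, fold changes correlated with r = 0.91 between the PBS and 1xLPS arms, 0.88 between PBS and 4xLPS and 0.91 between 1xLPS and 4xLPS. Genes are not independent replicates.

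Kdm6b read 10.1, 16.7 and 20.3 CPM in 1xLPS_NO and 63.3, 70.9 and 32.1 CPM in 1xLPS_LPS, and 12.5, 17.5 and 15.6 CPM in 4xLPS_NO and 65.3, 58.2 and 55.02 CPM in 4xLPS_LPS. It rose in both arms, by 1.83 ± 0.28 and 1.96 ± 0.28 on the log2 scale. The lowest stimulated value was that of 1xLPS_LPS library 3. Over the 6 group means, the genes outside the member list whose CPM tracked Kdm6b best were Ptpn12, a tyrosine phosphatase, Nfkbiz, an inducible IkappaB family member, and Abcc1, an export transporter. Their Pearson r was above that of all other genes tested, at 0.9996, 0.9990 and 0.9990, where the 6 points fall into 3 unstimulated and 3 stimulated groups.

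Setd8 rose by 1.04 ± 0.16 in the 1xLPS arm and 1.20 ± 0.16 in the 4xLPS arm. Its unstimulated libraries read 108, 74.4 and 74.8 CPM in 1xLPS_NO and 56.9, 75.8 and 75.6 CPM in 4xLPS_NO. Stimulated libraries read 174, 197 and 157 CPM in 1xLPS_LPS and 150.3, 166 and 163 CPM in 4xLPS_LPS. All 9 stimulated libraries of the study were above all 9 unstimulated ones, and the highest unstimulated value, 108 CPM, was that of 1xLPS_NO library 1. Kdm4a rose by 0.88 ± 0.14 and 0.65 ± 0.14, to 206 ± 31.9 and 164 ± 6.60 CPM. Dnmt3l rose by 2.60 ± 0.43 and 2.41 ± 0.41, to 3.33 ± 1.12 and 4.72 ± 0.313 CPM.

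Dnmt1 fell in both arms, to 58.9 ± 4.66 CPM in 1xLPS_LPS and 69.6 ± 3.98 CPM in 4xLPS_LPS. Its log2 fold changes were -1.37 ± 0.15 (adjusted p = 2.0e-06, edgeR) and -1.15 ± 0.15 (adjusted p = 1.6e-05). Over the 18 libraries the stimulated values ran from 51.5 to 77.5 CPM and the unstimulated ones from 139.5 to 174. Hdac5 fell by 1.30 ± 0.20 and 1.03 ± 0.20. Its 1xLPS_NO libraries were far apart, at 255, 159 and 249 CPM. Kdm2b fell by 0.95 ± 0.15 and 0.65 ± 0.15, and Sirt3 by 0.75 ± 0.24 and 0.73 ± 0.25. For Sirt3 the 1xLPS groups overlapped and the calls sat near the threshold (adjusted p = 0.035 and 0.044, edgeR).

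Kat2a (GCN5), the acetyltransferase of the SAGA complex, fell in the 1xLPS and 4xLPS arms by 0.89 ± 0.19 and 0.64 ± 0.19, and had -0.42 ± 0.19 in the PBS arm (adjusted p = 0.11). It read 65.7 ± 5.91 CPM in PBS_NO against 81.9 ± 17.5 and 70.96 ± 6.85 in 1xLPS_NO and 4xLPS_NO, while the stimulated means lay between 44.2 and 49.1 CPM. Kdm5c was called in the PBS and 1xLPS arms (4xLPS arm 0.25 ± 0.13), as were Hdac10 (-0.22 ± 0.21) and Setd7 (-0.31 ± 0.19, with overlapping 1xLPS groups). The lysine 4 demethylase Kdm1b and the mitochondrial desuccinylase Sirt5 fell in the 1xLPS arm, by 0.59 ± 0.15 and 1.27 ± 0.34. The call of Sirt5 was lost without 1xLPS_NO library 1 (-0.91). Sirt5 was low throughout, at 0.95 to 6.58 CPM, and shares stretches of its exons with several other genes.

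Tet2, the TET enzyme known for restraining inflammatory genes in myeloid cells, passed the test in the 4xLPS arm with 1.21 ± 0.40 (adjusted p = 0.039, edgeR). Its libraries read 9.12, 20.01 and 14.3 CPM in 4xLPS_NO and 32.6, 36.7 and 31.6 CPM in 4xLPS_LPS. The PBS and 1xLPS arms gave 1.00 ± 0.39 and 0.87 ± 0.40, and the difference between the 4xLPS and PBS responses was 0.21 ± 0.55 (adjusted p = 0.94). A larger rise in the 4xLPS arm is therefore not shown, and without 4xLPS_NO library 1 Tet2 no longer passed (0.97). Tet2 read 9.59 CPM in 1xLPS_LPS library 3 and 6.47 in 1xLPS_NO library 1, beside 30.4 and 35.0 and beside 20.8 and 13.6 in the other libraries of those groups. Without these libraries Tet2 was called in all 3 arms, with 1.00, 0.89 and 1.16.

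Kat5, Kdm2a and Sirt4, called in the PBS arm, had 0.23 ± 0.14, 0.32 ± 0.15 and -0.33 ± 0.27 in the 1xLPS arm and 0.30 ± 0.14, 0.27 ± 0.15 and -0.45 ± 0.27 in the 4xLPS arm, each in the same direction and not called. The most abundant members, Sirt2 and Ehmt2, were not called in any arm. Sirt2 had 0.37 ± 0.21, -0.03 ± 0.21 and -0.09 ± 0.21 in the PBS, 1xLPS and 4xLPS arms, and Ehmt2 -0.29 ± 0.15, -0.36 ± 0.15 and -0.18 ± 0.15. Of the 13 rows of the Kmt2, Setd1, Ezh and Ehmt families and the TET pair, Tet2 in the 4xLPS arm was the 1 call.

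**Figure D2:**
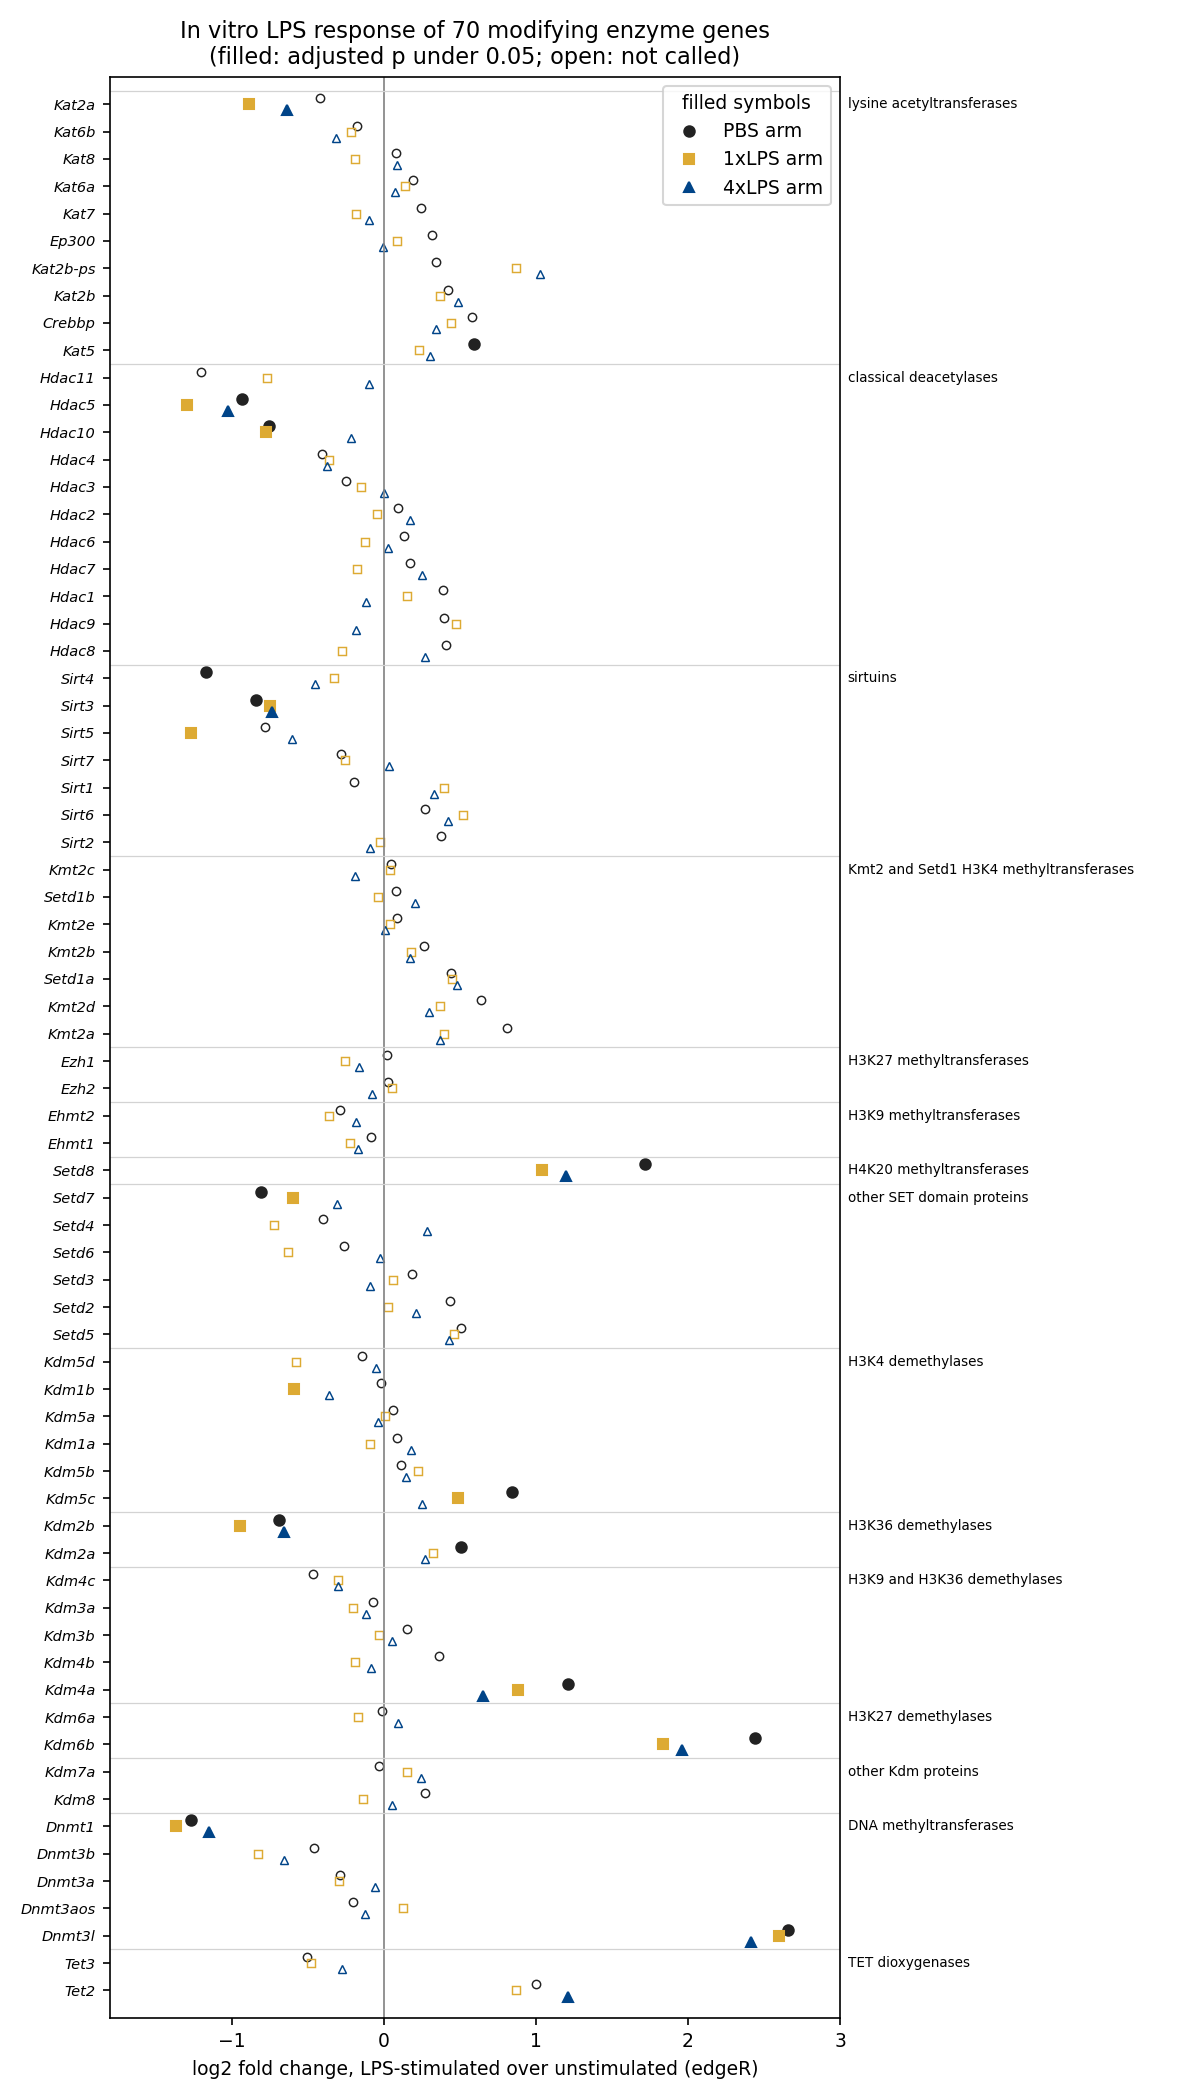
Log2 fold change of LPS-stimulated over unstimulated libraries (horizontal axis, edgeR) for each of the 70 tested members, by enzyme class; circles are the PBS arm, squares 1xLPS and triangles 4xLPS, filled where the adjusted p was under 0.05. Dnmt3l, Kdm6b, Setd8 and Kdm4a lie to the right and Dnmt1, Hdac5, Kdm2b and Sirt3 to the left in all 3 arms, while most other rows lie within 0.5 of 0.

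Leaving out 1xLPS_NO library 1 and 1xLPS_LPS library 3 raised the number of calls. The PBS response then held 15 members that rose and 11 that fell (36% of all genes called), the 1xLPS response 7 and 11 (26.8%) and the 4xLPS response 7 and 8 (28.7%), and every call of the full set was kept. The PBS libraries themselves are unchanged in that fit. Among the members added in the PBS response were Kmt2a (0.82), Kmt2d (0.64) and Crebbp (0.59), large coactivators and methyltransferases of active genes, and Tet3 (-0.49), which fell. In both libraries members with long gene models were low. The 20 members with at least 10813 bases of exon lay at a median of -0.53 and -0.41 log2 units from their group means, against -0.25 and -0.0039 for the 20 members of at most 5106 bases. Spearman's rho of deviation on length was -0.38 and -0.50 over the 70 members, and -0.07 and -0.16 over 13500 genes. Such a slope was not particular to these libraries. Over members, rho was -0.40 in 4xLPS_LPS library 3 and -0.26 in 4xLPS_NO library 1, and reached 0.53 in 1xLPS_LPS library 2. Over all genes with a length it was -0.29 in PBS_LPS library 1 and -0.27 in 4xLPS_LPS library 3, and 0.28 in PBS_LPS library 3.

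The design also asked whether earlier LPS in vivo left a difference between arms before restimulation. Without in vitro LPS, 0 members passed the test for 1xLPS against PBS, 4xLPS against PBS or 4xLPS against 1xLPS (background 0% of all genes in each, edgeR). At an unadjusted p under 0.05 the numbers of members were 6, 1 and 5 (8.57%, 1.43% and 7.14%, beside 11.8%, 6% and 9.55% of all genes), and DESeq2 and limma called 0 as well. The lowest p in 1xLPS against PBS belonged to Hdac7, a deacetylase of the Hdac5 family, with 0.65 ± 0.22 (adjusted p = 0.36). Its libraries read 29.6, 27.6 and 30.8 CPM in PBS_NO and 68.1, 30.8 and 39.5 CPM in 1xLPS_NO. The high value was that of 1xLPS_NO library 1, without which the log2 fold change was 0.25. Without 1xLPS_NO library 2, a deep library of 51275987 counts, 7 members were called (10%, beside 11.3% of all genes), among them Hdac7 (0.88) and Sirt1 (-1.15), in a group then made of the library that stood apart and 1 other. In 4xLPS against PBS the lowest p was that of Dnmt3a, with -0.29 ± 0.14 (interval from -0.59 to -0.0014, adjusted p = 0.82). Dnmt3a read 161, 145 and 146 CPM in PBS_NO and 120.4, 132 and 116 CPM in 4xLPS_NO, which do not overlap. Dnmt3a shares reads with its antisense RNA Dnmt3aos where strand is not used. In 4xLPS against 1xLPS the lowest was Hdac5 with -0.53 ± 0.20, where the groups overlapped.

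After in vitro LPS, 0 members passed for 4xLPS against PBS, beside 11 genes (0.0777%) of all genes tested in edgeR, 9 higher (0.0636%) and 2 lower (0.0141%). DESeq2 called Kdm4a and Setd3, both lower, beside 2.3% of all genes. Member log2 fold changes ran from -0.81 to 0.53. Members below and above 0 numbered 44 and 26, and 10 had an unadjusted p under 0.05 (14.3%, beside 13.9% of all genes), 9 of them lower in 4xLPS_LPS. The groups did not overlap in 17 members that were lower in 4xLPS_LPS (24.3%, beside 14% of all genes) and 3 that were higher (4.29%, beside 14.8%). Without TMM, which moves the median of all genes to 0.24, 7 members were lower without overlap (10%, beside 2.61% of all genes) and 16 higher (22.9%, beside 32.1%). The larger count thus changed direction with the scaling, while under both scalings the lower share of members was above that of all genes and the higher share below it.

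Several members that LPS raised in the PBS arm were at the low end of this comparison. PBS_LPS is shared by both comparisons, so their values are not independent. Kdm4a read 239, 262 and 196 CPM in PBS_LPS and 172, 160.4 and 161 CPM in 4xLPS_LPS (log2 fold change -0.50 ± 0.14, adjusted p = 0.16, edgeR). The lowest PBS_LPS library was above the highest 4xLPS_LPS library. The mean of Kdm4a in 1xLPS_LPS, 206 CPM, lay between the means of PBS_LPS and 4xLPS_LPS, 233 and 164 CPM. Its 1xLPS_LPS libraries, at 189, 243 and 186 CPM, overlapped those of PBS_LPS. Setd8 had -0.45 ± 0.16 (adjusted p = 0.22), from 218 ± 6.61 to 159 ± 8.08 CPM. Kdm5c had -0.39 ± 0.13 and Kat5 -0.40 ± 0.14. Setd3, an actin histidine methyltransferase despite its name, read 94.2, 93.05 and 97.4 CPM in PBS_LPS and 72.8, 74.3 and 71.1 CPM in 4xLPS_LPS, with -0.38 ± 0.12. Setd3 shares sequence with the copies Gm14026 and Gm7114. Ezh1 had -0.39 ± 0.13. Setd7 was the 1 member of these that was higher, with 21.5, 27.2 and 23.9 CPM in PBS_LPS and 34.3, 34.5 and 35.996 CPM in 4xLPS_LPS (log2 fold change 0.53 ± 0.19). Kdm6b had -0.30 ± 0.27 with an interval from -0.86 to 0.27, and Dnmt1 0.03 ± 0.15 with an interval from -0.28 to 0.34.

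Without the 2 libraries that stood apart, neither of which belongs to PBS_LPS or 4xLPS_LPS, 8 members passed (4.1% of all genes). That fit estimated both the TMM scaling and the shared spread anew, and the log2 fold changes of these members moved as well. Which of these brought the calls was not tested. Setd8 (-0.50), Kdm4a (-0.54), Setd3 (-0.43), Sirt2 (-0.48), Ezh1 (-0.43), Kat5 (-0.44) and Kdm5c (-0.43) were lower in 4xLPS_LPS and Setd7 (0.48) higher, with adjusted p from 0.034 to 0.048 (edgeR). The summed stromal marker level was 2476 CPM in PBS_LPS and 4077 in 4xLPS_LPS, and its part in these differences was not tested.

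**Figure D3:**
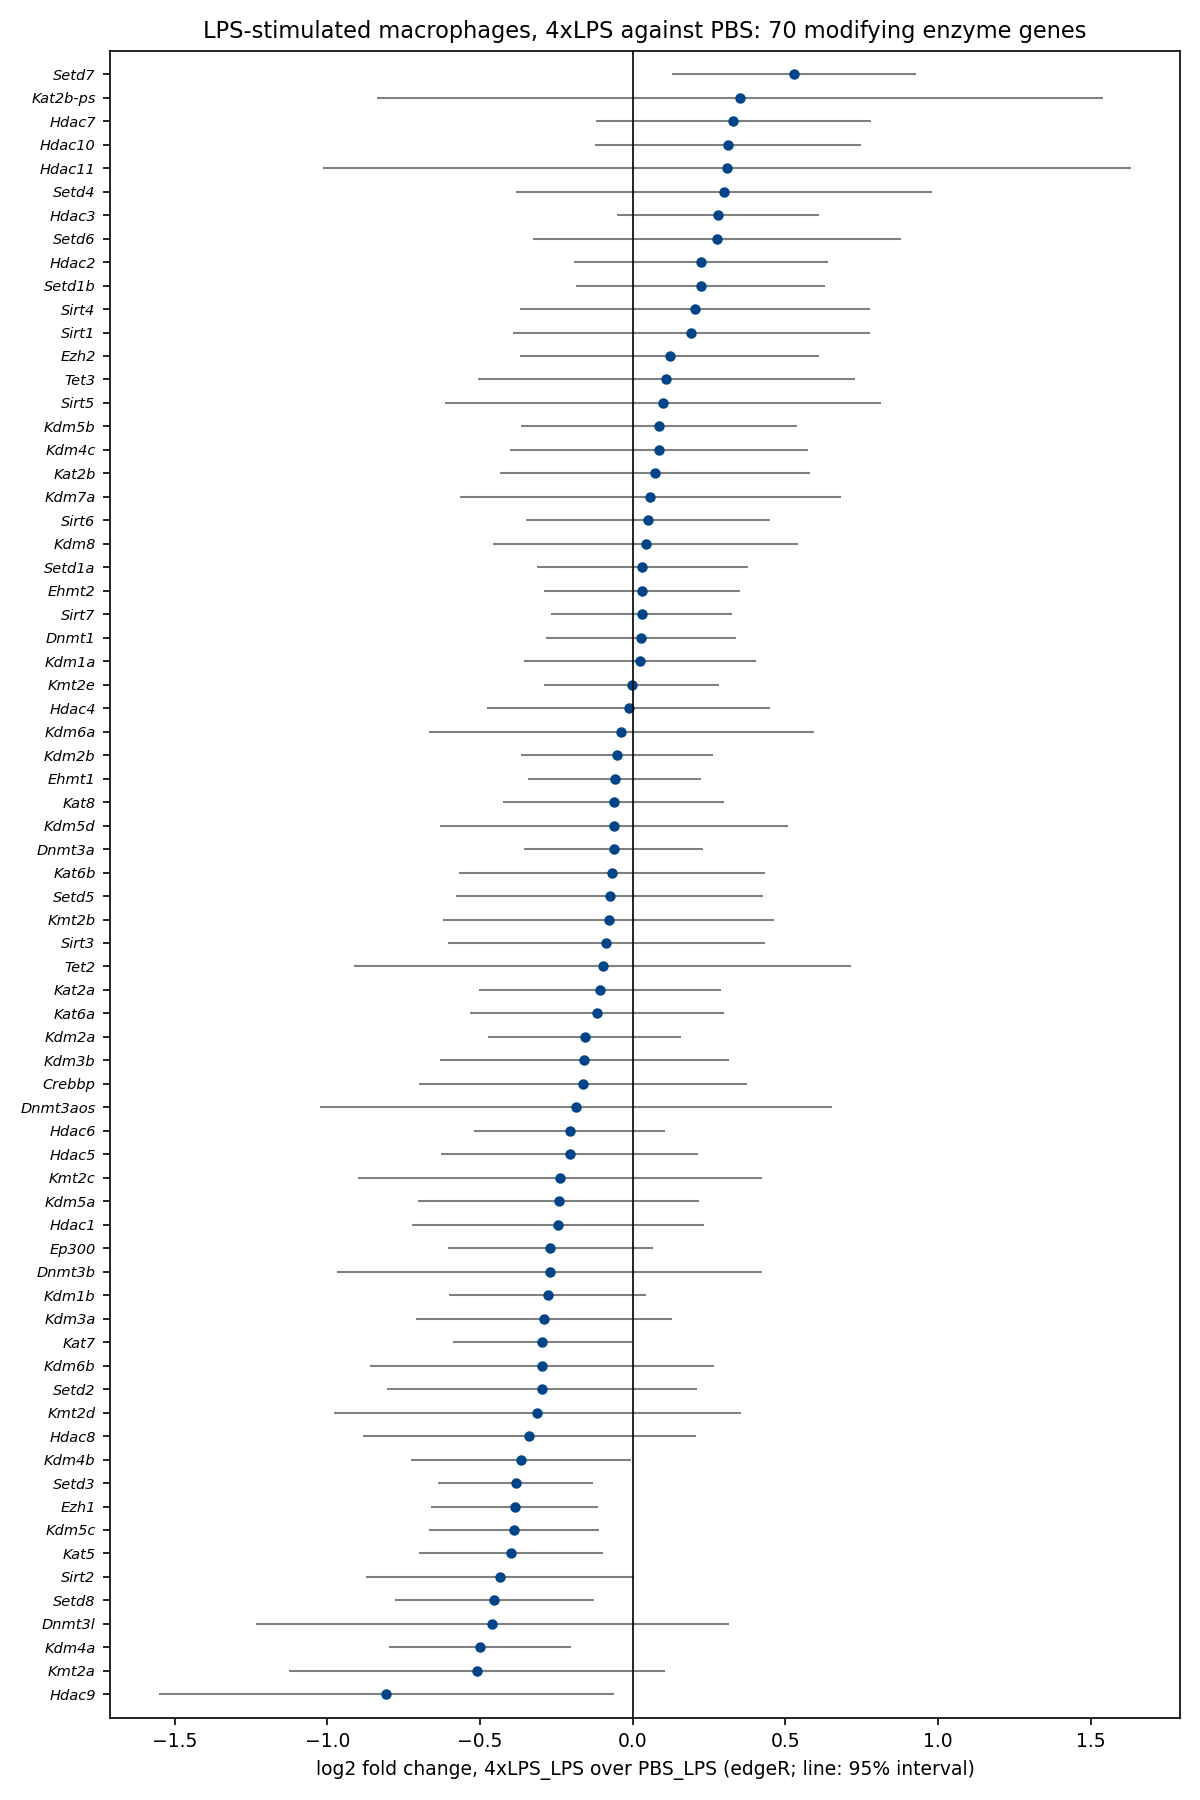
Log2 fold change of 4xLPS_LPS over PBS_LPS (horizontal axis, edgeR) with its 95% interval for each of the 70 tested members, sorted by value. Points run from -0.81 (Hdac9) to 0.53 (Setd7); intervals of Kdm4a, Setd3, Ezh1, Kdm5c, Setd8, Kat5, Hdac9, Kdm4b, Kat7 and Setd7 leave out 0, and 0 members passed at an adjusted p under 0.05.

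For 1xLPS_LPS against PBS_LPS and 4xLPS_LPS against 1xLPS_LPS, 0 members passed (0% of all genes in each, edgeR), with 2 and 6 at an unadjusted p under 0.05 (2.86% and 8.57%, beside 7.66% and 5.99% of all genes). The lowest p of the first was that of Kdm1b with -0.40 ± 0.15 (adjusted p = 0.59), followed by Dnmt3l with -0.96 ± 0.37. Dnmt3l was lower in each 1xLPS_LPS library, at 3.83, 4.11 and 2.05 CPM, than in each PBS_LPS library. In the second, Setd7 had 0.47 ± 0.19 and Kdm4a -0.33 ± 0.14.

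Differences of the LPS response between arms were tested directly. For 1xLPS minus PBS, 4xLPS minus PBS and 4xLPS minus 1xLPS, 0 members passed (0% of all genes in each, edgeR), and 5, 3 and 1 had an unadjusted p under 0.05 (7.14%, 4.29% and 1.43%, beside 8.15%, 5.67% and 2.12% of all genes). Setd8 had the lowest p of 1xLPS minus PBS, with -0.68 ± 0.22 (interval from -1.15 to -0.22, adjusted p = 0.43). Kdm5c had that of 4xLPS minus PBS, with -0.59 ± 0.19 (interval from -0.98 to -0.20, adjusted p = 0.81), followed by Kdm4a with -0.56 ± 0.20 and Setd8 with -0.52 ± 0.22. Kdm6b had -0.48 ± 0.38 in 4xLPS minus PBS with an interval from -1.28 to 0.33, so that neither a smaller nor an equal response was shown.

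The partners with which these enzymes work were counted from lists, to be read beside the 14% of all genes that rose and the 11.3% that fell in the PBS response. In the PBS response, 4 of 10 PRC2 partners of Ezh1 and Ezh2 rose and 0 fell, among them Aebp2 (1.37) and Mtf2, while the median log2 fold change of the list was 0.46 beside -0.02 over all genes. Of 11 COMPASS partners of the Kmt2 and Setd1 enzymes 3 rose and 0 fell, with 0.88 for Men1. In the deacetylase corepressor complexes 6 of 21 rose and 2 fell. Sap30 of the Sin3 complex had 1.03, and Tbl1xr1 of the NCoR complex had -1.25. Of 23 acetyltransferase partners 7 rose and 1 fell, with 1.15 for Brpf3. The BET reader Brd2, which binds acetylated lysine, rose (0.68). Of 33 tested modifying enzymes outside the name patterns 5 rose and 3 fell. Jmjd1c, of the Kdm3 family, had -1.50 and the demethylase Phf8 0.84. Among 14 readers and cofactors of DNA methylation 3 rose and 3 fell, with 2.54 for Gadd45b and -1.14 for Zbtb38.

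The 1xLPS and 4xLPS responses had 2 and 3 PRC2 partners, 0 and 1 COMPASS partners and 1 and 2 corepressor subunits that rose. Of acetyltransferase partners 3 and 2 rose, and of readers and cofactors of DNA methylation 3 and 4, beside 12% and 10.6% of all genes. Falls numbered 0 and 0 for PRC2 and for COMPASS partners, 2 and 2 for corepressor subunits and 2 and 1 for acetyltransferase partners. They numbered 3 and 2 for readers and cofactors of DNA methylation, beside 10.8% and 8.29% of all genes. Of 33 modifying enzymes outside the name patterns 3 and 3 rose and 4 and 3 fell. Of 4 BET readers 2 and 2 rose and 0 fell. These counts compare thresholds and not responses, since the differences between arms passed for 0 genes. Aebp2 (1.15 and 1.19), Gadd45b (2.66 and 2.85) and Jmjd1c (-1.24 and -1.06) were called in both arms with the direction of the PBS arm. In 4xLPS_LPS against PBS_LPS 0 genes of these lists were called.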

How the data were processed

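The deposited table holds raw counts of reads per gene symbol, whole numbers whose totals differ between libraries, although its sheet is named for RPM. Per the labels' protocols, poly(A) RNA was taken from 500 ng of total RNA and sequenced on an Ion Proton, and reads were aligned to mm10 with TopHat2 and then Bowtie2 in Torrent Suite 5.12. Which program counted the reads, on which annotation and with which strand setting is not given in the sources used here.

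For testing, genes were kept where 3 or more libraries reached 1 CPM. After TMM scaling, edgeR 4.0.16 (glmQLFit, glmQLFTest) was fitted with 1 mean per group over 18 libraries and 12 residual degrees of freedom. In 12 contrasts p-values were adjusted by Benjamini-Hochberg over all 14158 genes tested, and genes were called at an adjusted p under 0.05. The biological coefficient of variation was 23.9%. Levels are CPM with their SD over the 3 libraries of a group, differences are log2 fold changes with their SE, and an interval is a 95% interval of the log2 fold change from its SE and the degrees of freedom of its test. The fit was tested on simulated data for the LPS response of the PBS arm. It detected 8.96% of the genes given a 1.5-fold shift. Detection was 62.7% for a 2-fold shift and 98.5% for a 4-fold shift, and 0.877% of its calls were false. A result of 0 called members therefore does not exclude differences of 2-fold or less. Genes of low CPM were not among those shifted, and the other contrasts were not simulated, so detection there is not known. A count of 0 allows up to 0.0555 to 0.323 CPM in a library (3 counts, counting error only).

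Named genes were, in each contrast, all called members; in each enzyme class, the member of highest CPM not called; a panel of 12 enzymes; and, in partner lists, up to 4 called genes, of which some are not reported here. Members and lists were chosen with earlier results of these data known. The promoter start of each gene was chosen after the sequences were seen. Positions and exon lengths are from GENCODE M21 (mm10). Overlap means at least 50 shared exon bases, and a near-identical copy at least 95% identity over at least 150 bases, which 25 and 9 of the tested members had.

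Alternatives were DESeq2 1.42.0, its size factors in edgeR, no TMM, limma 3.58.1 on log2(CPM + 1), no filter on low counts, a fit to the compared groups alone, a replicate block, and fits without single libraries or without 1xLPS_NO library 1 and 1xLPS_LPS library 3. Labels share replicate numbers between groups without saying what a number marks. Deviations of same-numbered libraries correlated above 0.1 for all 3 numbers in 4xLPS_NO against PBS_NO (r = 0.59, 0.20 and 0.38), and in none of the other 8 comparisons of groups.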

Additional observations from a re-analysis of the deposited data

How the results depend on the processing

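In the LPS responses the 8 members called in all 3 arms kept their direction under every alternative run, and Dnmt1, Hdac5, Kdm2b, Dnmt3l, Kdm4a, Kdm6b and Setd8 also kept their calls. Fitting the compared groups alone gave 25 called members in the PBS arm, 8 in the 1xLPS arm and 17 in the 4xLPS arm (14, 14 and 10 in the fit to all groups), beside 32.3%, 7.86% and 34.5% of all genes. Without 1xLPS_NO library 1 and 1xLPS_LPS library 3 the PBS arm had 26, and 4xLPS_LPS against PBS_LPS had 8, where DESeq2 gave 2. Leaving out single libraries gave 11 to 19 in the PBS arm, 10 to 21 in the 1xLPS arm, 7 to 11 in the 4xLPS arm (beside 19 to 30.2%, 15.7 to 30% and 13.5 to 23% of all genes), 0 to 7 for 1xLPS_NO against PBS_NO (0 to 11.3%) and 0 to 1 (Hdac5) for 4xLPS_NO against 1xLPS_NO (0 to 3.91%). The 21 in the 1xLPS arm came without 1xLPS_LPS library 3 or 1xLPS_NO library 2, and the 7 and the 1 without 1xLPS_NO library 2. The cause was not tested.

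The replicate block gave 14, 14 and 10 called members in the 3 responses and 0 in every comparison between arms, as without it, and changed no call of a member.

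Calls of Sirt3, Hdac10, Kdm2a, Kdm5c, Kdm1b, Setd7, Sirt5, Kat2a and Tet2 sat near the threshold. That of Tet2 was lost in 8 of 18 fits without 1 library and without TMM (1.19). Without 1 library, Hdac10 fell short in the PBS arm (-0.58 without PBS_LPS library 1) and in the 1xLPS arm (-0.55 without 1xLPS_NO library 3), Kdm5c in the 1xLPS arm (0.33 without 1xLPS_LPS library 2), Setd7 in the 1xLPS arm (-0.41 without 1xLPS_NO library 2), Kat2a in the 4xLPS arm (-0.55 without 4xLPS_NO library 1) and Sirt3 in the PBS, 1xLPS and 4xLPS arms (smallest values -0.77, -0.50 and -0.63).

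Ezh2, Kdm5b and Sirt1, not called in the PBS response, changed sign. Without TMM, where the median of all genes was -0.23 (edgeR) and -0.21 (limma), Ezh2 went from 0.03 to -0.18 (edgeR) and -0.17 (limma), and Kdm5b from 0.11 to -0.10 in both. Without single libraries Ezh2 ranged from -0.071 to 0.12 and Sirt1 from -0.32 to 0.018. Depth limits low members such as Dnmt3l, with 8 to 306 counts per library.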
